A study of Mus musculus with 8 samples.

Results

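After EnPGC-1 treatment of activated mouse CD8+ T cells, 38919 intervals of H3K27 acetylation lay away from gene ends and were also listed in DMSO-treated cells. They were 38919 of the 247434 distinct EnPGC-1 intervals on chromosomes 1 to 19, and of 253423 in the whole EnPGC-1 list. An interval was counted when it overlapped a DMSO interval by at least 1 bp and lay more than 5 kb from both ends of every protein-coding RefSeq gene. They were thus selected on position and on the overlap of the lists, with no use of score or width. Such intervals are candidate enhancers by position, and they are called shared distal intervals here. Of them, 23092 lay inside a protein-coding gene and 15827 outside such genes.

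All cells were CD8+ T cells of C57BL/6 mice, taken from lymph node and spleen and stimulated with antibodies against CD3 and CD28. One group was treated with EnPGC-1, which the labels class among PIPs, and the other with the vehicle DMSO, each for 48 h. H3K27ac was mapped by ChIP-seq in 2 samples per treatment, beside 1 input sample per treatment and 2 IgG samples from DMSO-treated cells, which made 8 samples in 5 groups. The sources used here give neither the age nor the number of the mice, and do not say whether samples of a group came from different animals. The series title ties the work to mitochondrial biogenesis, and the design compares the acetylation landscape with and without the compound. The deposited values are 1 list of intervals per treatment, which leaves no spread between samples and no test between treatments. Ranges in brackets are exact binomial 95% intervals that cover counting error only.

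H3K27ac is an acetyl mark on histone H3 that is found at active promoters and at active enhancers. Enhancers are stretches of DNA that bind transcription factors and raise transcription of a gene that may lie far away, often from within an intron of that gene or of a neighbour. In T cells, broad groups of acetylated enhancers are known at genes that define the lineage, such as those for the factors BCL11B, RUNX3 and TCF-1. PGC-1α and PGC-1β, encoded by Ppargc1a and Ppargc1b, are coactivators that drive the making of mitochondria.

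Some shared distal intervals covered a start site that RefSeq places inside a gene, so position away from the outer ends of genes does not leave promoters out. 5 such start windows at genes known in T cells are shown to make this visible. Each spans 250 bases before to 50 after the start, was taken from RefSeq (build GRCm38.p6), and is written 5′ to 3′ on the strand of its gene with CpG dinucleotides in capitals. The genes were chosen after their values were seen.
Runx1: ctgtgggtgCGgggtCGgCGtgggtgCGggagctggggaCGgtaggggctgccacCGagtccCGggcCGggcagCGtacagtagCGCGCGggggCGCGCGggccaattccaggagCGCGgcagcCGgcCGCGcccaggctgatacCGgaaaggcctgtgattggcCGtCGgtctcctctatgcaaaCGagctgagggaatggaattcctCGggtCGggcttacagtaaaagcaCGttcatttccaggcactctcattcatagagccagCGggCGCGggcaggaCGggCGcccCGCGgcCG
Nr4a1: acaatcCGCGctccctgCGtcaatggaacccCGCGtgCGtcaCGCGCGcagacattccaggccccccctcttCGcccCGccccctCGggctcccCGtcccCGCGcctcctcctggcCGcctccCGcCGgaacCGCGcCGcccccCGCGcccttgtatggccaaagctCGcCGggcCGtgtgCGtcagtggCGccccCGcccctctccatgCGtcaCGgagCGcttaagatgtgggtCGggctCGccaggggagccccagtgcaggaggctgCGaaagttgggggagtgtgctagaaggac
Nfatc2: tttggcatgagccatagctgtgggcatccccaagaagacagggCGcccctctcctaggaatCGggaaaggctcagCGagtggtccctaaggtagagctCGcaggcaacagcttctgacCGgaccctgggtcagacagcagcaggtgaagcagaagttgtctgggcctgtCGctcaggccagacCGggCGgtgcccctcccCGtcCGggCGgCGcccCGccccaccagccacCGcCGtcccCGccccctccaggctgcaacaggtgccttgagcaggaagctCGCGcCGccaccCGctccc
Prdm1: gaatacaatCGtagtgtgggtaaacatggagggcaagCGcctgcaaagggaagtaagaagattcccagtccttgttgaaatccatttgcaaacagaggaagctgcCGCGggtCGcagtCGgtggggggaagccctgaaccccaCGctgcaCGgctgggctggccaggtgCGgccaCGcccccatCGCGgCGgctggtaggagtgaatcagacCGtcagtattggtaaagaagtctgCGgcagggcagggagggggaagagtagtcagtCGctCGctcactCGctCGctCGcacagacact
Lck: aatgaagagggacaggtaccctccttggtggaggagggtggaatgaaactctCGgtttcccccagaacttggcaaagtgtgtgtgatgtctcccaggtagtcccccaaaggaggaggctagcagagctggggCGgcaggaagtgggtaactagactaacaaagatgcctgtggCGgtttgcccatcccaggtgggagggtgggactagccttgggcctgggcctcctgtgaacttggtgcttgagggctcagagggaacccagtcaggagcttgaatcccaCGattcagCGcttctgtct
The Runx1 window, for a factor of blood and T cell development, lies at chr16:92697280-92697579 on the minus strand, 95.8 kb from the nearest gene end. It holds 35 CpG dinucleotides, and the EnPGC-1 interval over it is 2314 bp wide, against 1906 bp of DMSO intervals. The window of Nr4a1, an orphan nuclear receptor induced by T cell receptor signals, lies at chr15:101266596-101266895 on the plus strand and holds 35. Those of Nfatc2, a factor activated by calcineurin (chr2:168590316-168590615, minus strand), and of Prdm1, the gene of BLIMP-1 (chr10:44458699-44458998, minus strand), hold 20 each. The window of Lck, the kinase that starts T cell receptor signalling, lies at chr4:129558323-129558622 on the minus strand and holds 5. The windows thus run from CpG-rich to CpG-poor, with a GC content of 72.3% at Nr4a1, 69% at Runx1, 68% at Nfatc2, 59.7% at Prdm1 and 57.3% at Lck. The shared intervals over the Nr4a1, Prdm1 and Lck windows were 878, 991 and 1225 bp wide, against 404, 497 and 305 bp in the DMSO list. A DMSO interval lay over the window itself in 4 of the 5, the exception being Nfatc2, where the shared interval of 1516 bp met a DMSO interval of 299 bp elsewhere along its length.

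MicroRNA hairpins also lay under shared distal intervals, and 9 mature sequences are shown because their genes are among the best known of these or belong to the largest group. They were chosen after their positions were seen, come from RefSeq (GRCm38.p6), and have the seed, bases 2 to 8, in capitals.
miR-182-5p: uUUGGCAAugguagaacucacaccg
miR-96-5p: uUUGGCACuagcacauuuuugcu
miR-183-5p: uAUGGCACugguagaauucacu
miR-148a-3p: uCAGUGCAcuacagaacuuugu
miR-26a-5p: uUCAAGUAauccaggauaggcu
let-7b-5p: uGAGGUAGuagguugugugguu
miR-9-5p: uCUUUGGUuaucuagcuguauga
miR-431-5p: uGUCUUGCaggccgucaugca
miR-410-3p: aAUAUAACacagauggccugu
Each of these 9 has a seed of its own. Mir182, Mir96 and Mir183 form a single cluster on chromosome 6 near Nrf1, the gene of a factor that drives nuclear genes for mitochondrial proteins. The hairpins of Mir96 and Mir183 lay under an EnPGC-1 interval of 3086 bp that met 859 bp of DMSO intervals, and that of Mir182 under a neighbour of 802 bp that met 594 bp. Mir148a lay under 1794 bp against 371 bp, Mir26a-1, within Ctdspl, under 5374 bp against 1206 bp, and Mirlet7b, near Ppara, under 1572 bp against 808 bp. Mir9-1 and Mir9-3, which give the same miR-9-5p, lay under 1058 bp against 608 bp on chromosome 3 and under 1563 bp against 293 bp on chromosome 7. Of 566 hairpins more than 5 kb from gene ends, 84 were overlapped by 71 shared distal intervals, which is 14.8%. Another 93 were overlapped by EnPGC-1 intervals without a DMSO partner and 389 by no EnPGC-1 interval. In 48 of the 84 a DMSO interval lay over the hairpin itself, as at Mir9-1 and Mir431. At Mir96, Mir183, Mir148a, Mir9-3 and Mir410 the DMSO interval lay elsewhere along the shared interval. Of the 84, 18 lay on chromosome 12, and 16 of these had Rtl1 as host or nearest gene, in the imprinted domain of Dlk1 and Dio3, Mir431 and Mir410 among them. The 84 hairpins give 149 mature RNAs with 147 seeds, and the 2 seeds found at more than 1 hairpin are those of the arms of miR-9.

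Of the EnPGC-1 intervals on chromosomes 1 to 19, 23.2% overlapped a DMSO interval, and of those away from gene ends 21.1% did, which is 38919 of 184612 (20.9 to 21.3). These shares are fixed by the rule and are given as background. Inside genes 23.7% of the distal EnPGC-1 intervals were shared (23.4 to 24.0) and outside genes 18.2% (17.9 to 18.4). With an overlap of at least 50% of both intervals these shares were 11.9% and 11.0%, and with 50% of the EnPGC-1 interval 13.3% and 11.9%, so the gap between them was narrower with a stricter overlap. By the 1 bp rule, 59.3% of shared distal intervals lay inside a gene (58.8 to 59.8), against 51.0% of the 145693 distal EnPGC-1 intervals without a DMSO partner (50.8 to 51.3). In the first 1 kb beyond the limit of 5 kb from a gene end, 1698 of 7125 EnPGC-1 intervals were shared, and in the last 1 kb short of it 1984 of 7921, with median widths of 726 bp and 734 bp for the shared ones. The limit therefore does not fall at a step in these values. Seen from the other list, 40020 of 55761 distal DMSO intervals met an EnPGC-1 interval, 73.9% of those inside genes and 68.8% of those outside.

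Width went together with sharing over its whole range. Of distal EnPGC-1 intervals under 350 bp, 9.55% were shared (9.27 to 9.83), and of those of 3000 bp or more, 87.0% (84.1 to 89.6). An overlap of 1 bp is reached more easily by a wide interval, and how much of the relation this sets was not tested. Median widths inside and outside genes were 310 bp each in the narrowest of 8 width classes, and 3509 and 3392 bp in the widest. Within all 8 classes the share was higher inside than outside genes. From 1000 to under 1500 bp it was 43.1% inside (42.1 to 44.2) and 36.9% outside (35.6 to 38.2). The counting intervals overlap in 2 of the 8. From 1500 to under 2000 bp it was 54.6% inside (52.8 to 56.4) and 50.9% outside (48.3 to 53.4), and in the widest class 87.8% (84.6 to 90.5) and 83.5% (74.9 to 90.1).

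**Figure D1:**
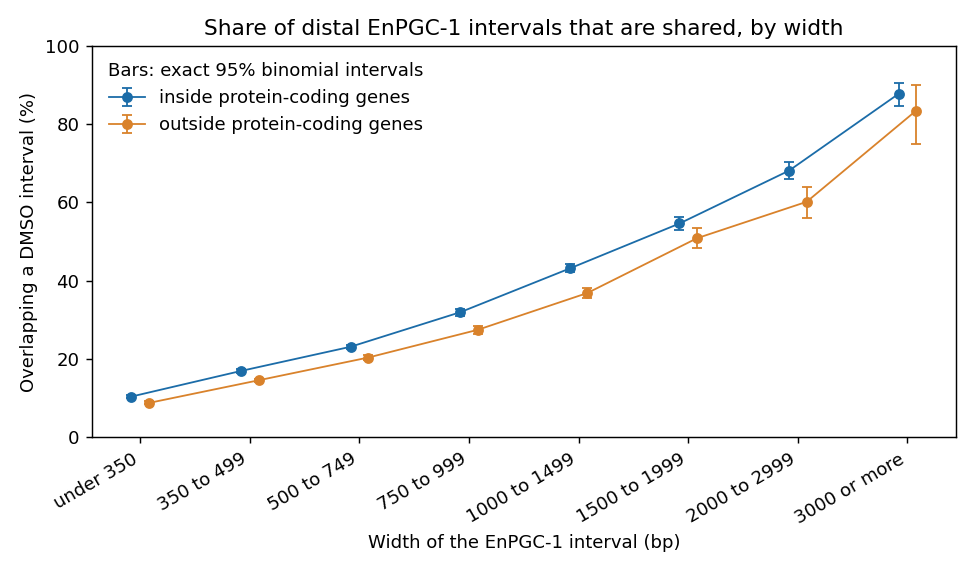
Share of distal EnPGC-1 intervals that overlap a DMSO interval (%, vertical axis) in 8 classes of EnPGC-1 width (bp, horizontal axis), inside (blue) and outside (orange) protein-coding genes; bars are exact 95% binomial intervals. The share climbs from 10.4% to 87.8% inside genes and from 8.77% to 83.5% outside, and the points for inside lie above those for outside in every class.

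The gap between inside and outside narrowed with distance from gene ends. At 5 to 10 kb, 26.6% of distal EnPGC-1 intervals inside genes were shared (26.0 to 27.2), against 19.1% outside (18.4 to 19.9). At 200 to 500 kb the shares were 16.2% inside (14.9 to 17.5) and 16.7% outside (16.0 to 17.4), which overlap within counting error. Inside and outside together, the share was 24.0% at 5 to 10 kb and 14.7% beyond 500 kb. The median shared distal interval inside a gene lay 21.1 kb from the nearest end, and the median one outside 42.6 kb. The farthest lay 2231 kb from the nearest gene end, on chromosome 14 with Pcdh9, a protocadherin gene, as its nearest gene. It was 351 bp wide against 383 bp in the DMSO list and was picked once its values were known.

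Shared distal intervals had a median width of 651 bp, 705 bp inside genes and 590 bp outside, against 449 bp for distal EnPGC-1 intervals without a partner and 823 bp for shared ones within 5 kb of a gene end. Of the shared distal ones, 26.8% were 1 kb or wider, against 7.95% of the unpartnered distal ones. More than 1 summit was listed in 34.0% of the shared distal intervals and in 14.2% of the unpartnered ones. Per kb covered the order was reversed, with 1.82 summits in the shared distal intervals and 2.13 in the unpartnered ones. The score of the peak caller, read as a −log10 q-value from its lowest value of 1.31, differed little between them, with medians of 3.69 and 3.48. In total the shared distal intervals covered 33.1 Mb, 21.2 Mb of it inside genes.

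At the same places the EnPGC-1 interval was usually the wider one. The DMSO intervals met by a shared distal interval had a median summed width of 458 bp, and 37450 of the 38919 met a single one. The EnPGC-1 interval was wider in 72.6% of cases and narrower in 27.2%, and the median ratio of the widths was 1.33, with quartiles of 0.97 and 2.03. Over all shared intervals, those near gene ends included, it was wider in 73.6% and the median ratio was 1.38, so shared distal intervals lay near the share of all shared ones. The median ratio of the widths was 1.38 inside genes and 1.28 outside. It was at least 2 in 25.7% of shared distal intervals, against 33.5% of shared intervals within 5 kb of a gene end and 28.2% of all shared intervals, and the DMSO side was at least 2 times as wide in 3.57%. In 36.3% the EnPGC-1 interval reached beyond the DMSO interval on both sides, and in 7.96% it lay within it. The median shared distal interval had 59.9% of its bases covered in the DMSO list, with 567 of the 38919 overlapping by under 50 bp. Width in one list told little about width in the other, with a rank correlation of 0.30 over the 38919 places, and the score still less, at 0.07; both lists come from the same genome positions and the values are descriptions.

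**Figure D2:**
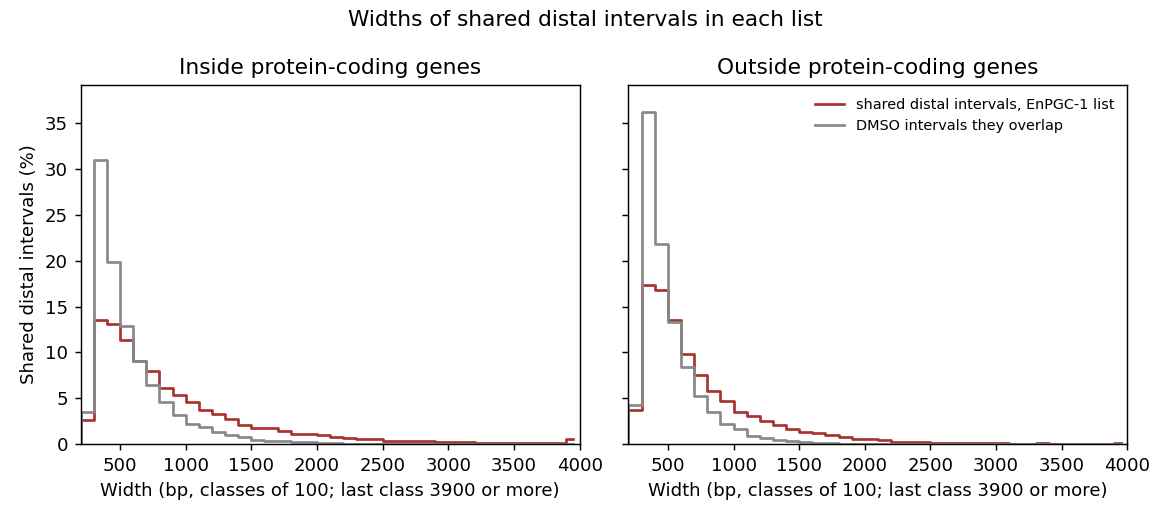
Width (bp, horizontal axis, classes of 100 bp) of shared distal intervals in the EnPGC-1 list (red) and summed width of the DMSO intervals they overlap (grey), as % of shared distal intervals (vertical axis), inside genes (left) and outside (right). The grey curves peak in the class that starts at 300 bp and the red curves have a longer tail, with medians of 705 bp against 474 bp inside genes and 590 bp against 437 bp outside.

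Intervals that most exceeded the DMSO side in width lay inside genes. An EnPGC-1 interval of 10366 bp within Ttc28, the widest of all shared distal intervals, met 4 DMSO intervals that summed to 2847 bp. Within Gse1, whose product is found with histone deacetylase and demethylase complexes, 9912 bp met 5 DMSO intervals of 3192 bp in all. Rai1, a nuclear regulator of transcription, had 7715 bp against 1027 bp, Bahcc1 7395 bp against 1606 bp, and Kdm4b, a histone H3 demethylase, 6633 bp against 1212 bp. The opposite order was seen at Fmnl3, a formin that shapes actin, where 2 EnPGC-1 intervals of 986 and 1446 bp lay along a single DMSO interval of 3540 bp. At Arhgef10l, 1379 bp in the EnPGC-1 list met 3510 bp, near Fbln2 353 bp met 2364 bp, and at Pcdh1 341 bp met 2322 bp. These cases were taken as the extremes of width minus width, so that they describe the ends of a range.

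Shared distal intervals were unevenly spread over the genome. Chromosome 11 held 23.0 per Mb and chromosome 3 held 7.69. Sharing among distal EnPGC-1 intervals was lowest on chromosome 3, at 15.7%, and highest on chromosome 4, at 25.1%. The part inside genes was 66.7% on chromosome 11 and 44.1% on chromosome 13, the extremes. When chromosomes were divided into bins of 1 Mb, 2410 bins held an EnPGC-1 interval of any kind, and bins without one were not counted. Of the 2410, the 241 richest held 40.9% of shared distal intervals, and 54 held none. The richest bin, with 161, lay on chromosome 8 at 120 to 121 Mb, and a neighbour at 121 to 122 Mb held 133. Bins with more genes held more of them, with a rank correlation of 0.58 over the 2410 bins, given as a description.

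Inside genes, 5954 of the 20661 protein-coding genes, 28.8%, held at least 1 shared distal interval. A gene needs more than 10 kb to hold any under the rule, and none of the 7341 shorter genes did. Among genes of 25 kb or more, 58.1% held at least 1, and of the 215 genes of 500 kb or more, 90.7%. Pooled per 100 kb of full gene length, genes of 10 to 25 kb held 2.01 shared distal intervals. Genes of 25 to 50 kb held 3.36 and genes of 500 kb or more held 0.77. These lengths include the 5 kb at each end that the rule leaves out.

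Camta1, which encodes a calmodulin-binding transcription activator, held 97, more than any other gene. It was followed by Gse1 with 76, Rbfox3, a neuronal splicing factor, with 74, Nav2 and the zinc finger gene Prdm16 with 61 each, and the cadherin gene Cdh4 with 56. Agap1, Cdh23 and Csmd2 held 51 each and Sorcs2 held 48. These 10 genes are 321 to 802 kb long, so that density orders them differently. Gse1 held 21.5 per 100 kb and Rbfox3 17.5, while Camta1 held 12.1 and Csmd2 8.78. Sharing within them also varied: 46.9% of the distal EnPGC-1 intervals in Gse1 had a DMSO partner, against 28.0% in Csmd2. Among genes over 100 kb, Megf6 was the densest at 24.8 per 100 kb, and Nfatc2 held 21.6. Other long genes had none. Arhgap15 held 0 shared distal intervals in 647 kb, with 14 distal EnPGC-1 intervals and 0 distal DMSO intervals, and Nlgn1, a neuronal adhesion gene, held 0 in 911 kb. Megf6, Nfatc2, Arhgap15 and Nlgn1 were picked once their values were known.

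**Figure D3:**
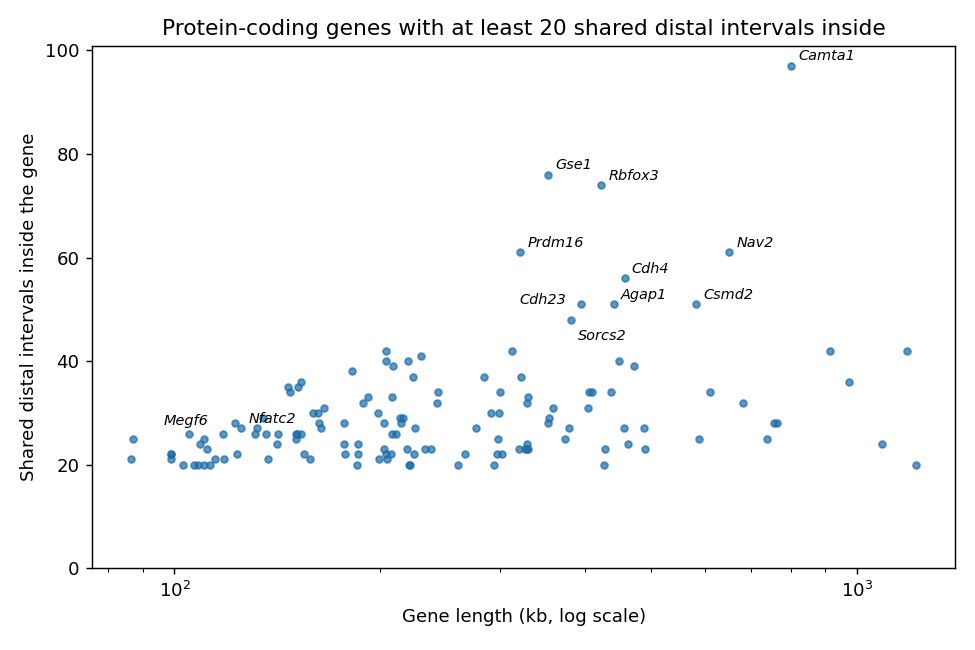
Number of shared distal intervals inside a gene (vertical axis) against gene length (kb, log scale, horizontal axis) for the 137 protein-coding genes with 20 or more; each point is a gene. Camta1 stands at 97, Gse1 and Rbfox3 at 76 and 74, and genes of similar length differ widely.

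Shared distal intervals also stood close together. Joined across the stitching distance commonly used for super-enhancers, they formed 20390 groups, of which 13548 were single intervals, and 65.2% of shared distal intervals had a neighbour within that distance. The 330 groups of 10 or more held 12.4% of them. By bases covered, the leading group filled Gse1 with 76 intervals and 110639 bp over 332 kb, where the DMSO intervals they met, each counted once, summed to 51077 bp. A group of 38 outside genes, near 1700018B08Rik and the forkhead gene Foxl1, covered 51132 bp against 25728 bp. Mcf2l and Prex1, genes of exchange factors for small GTPases, held 49906 bp against 22204 bp and 49112 bp against 24311 bp. Rbm19, for a factor of ribosome making, had 17 intervals that covered 63.0% of 67.6 kb, the highest share of the 10 leading groups. Cux2, Dnah17, Sh3pxd2a and Zmiz1, the last a coactivator of NOTCH1 in T cell development, were also among the 10, with 41287 to 42501 bp each. Of these 10 groups 9 lay inside genes.

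At 29 genes known for regulation in T cells, counts of shared distal intervals ran from 0 to 36, and Bcl11b, Runx1 and Runx3 had the most. In the gene and 100 kb on each side, Bcl11b, needed for T cell commitment, had 36 shared distal intervals among 125 EnPGC-1 and 47 DMSO intervals. Runx1 had 28 among 109 and 36, and Runx3, the factor of the CD8 lineage, 27 among 93 and 38. Most of the 29 loci held fewer per 100 kb than chromosomes 1 to 19 as a whole. Per 100 kb Bcl11b held 12.3, Runx3 10.5 and Runx1 6.59, beside 1.58 over chromosomes 1 to 19. All EnPGC-1 intervals were dense there too, at 42.6, 36.1 and 25.7 in that order, beside 10.1. DMSO intervals stood at 16.0, 14.8 and 8.48, beside 3.25. At Bcl11b, 14 of the 36 lay within the gene and 22 outside genes on either side. At Runx3, 9 lay within the gene, 17 outside genes and 1 within a neighbour.

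The widths at Bcl11b show how the lists differed at a single locus. Of its 36 shared distal intervals, 24 were wider in the EnPGC-1 list. The 36 summed to 35101 bp, and the DMSO intervals they met, each counted once, to 20857 bp. The widest, of 2453 bp at chr12:108048662-108051114, met 670 bp of DMSO interval, and one of 2241 bp within the gene met 364 bp. Others were narrower in the EnPGC-1 list, such as 426 and 349 bp that both lay on a DMSO interval of 1223 bp. At Runx3, 19 of 27 were wider, and the widest, within the gene, had 3944 bp against 584 bp. These places were picked as extremes of the locus after their values were seen.

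**Figure D4:**
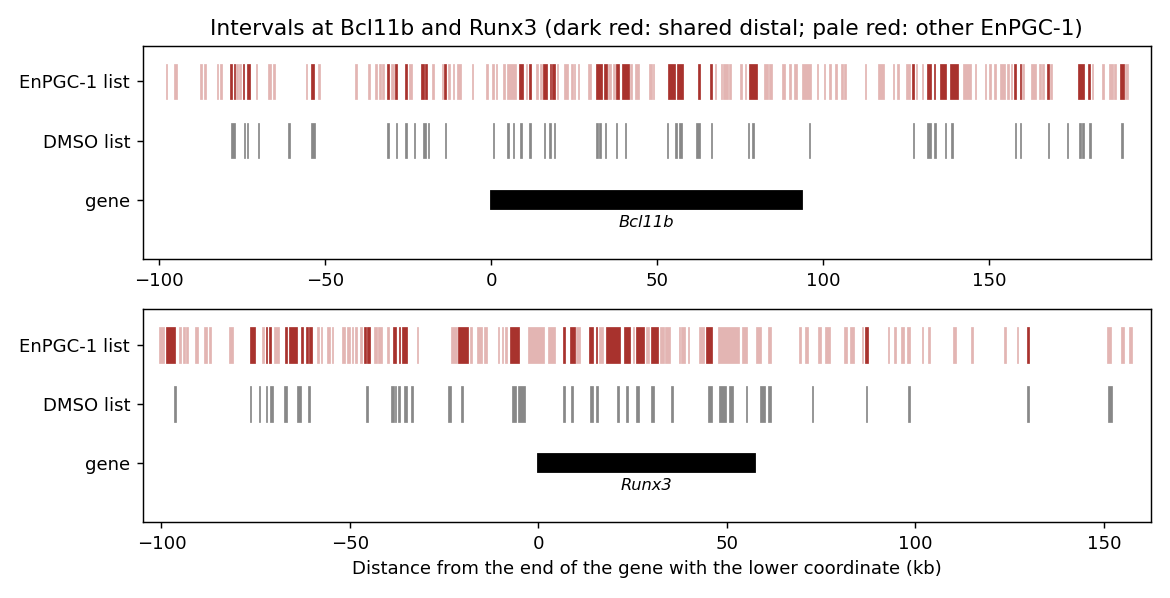
Intervals at Bcl11b (top) and Runx3 (bottom) with 100 kb on each side; the horizontal axis is the distance in kb from the gene end with the lower coordinate, and rows hold the EnPGC-1 list, the DMSO list and the gene. Dark red blocks are shared distal intervals, 36 at Bcl11b and 27 at Runx3, lying within the gene and on both sides, and pale red blocks are the other EnPGC-1 intervals.

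Other loci of the 29 chosen T cell genes held fewer. Bach2, a repressor that keeps memory potential, had 14, Tcf7, the gene of TCF-1, 12, and its relative Lef1 7. The AP-1 partner gene Batf had 6, while Ets1, Tbx21 (T-bet) and Id2 had 5 each and Eomes 4. Gata3 and Ikzf1 had 3 each. At Tcf7 one interval inside the gene was 4083 bp wide against 608 bp in the DMSO list. Il2ra, the high-affinity chain of the IL-2 receptor, had 2, of 815 bp against 533 bp within the gene and of 1371 bp against 592 bp outside it, with Pfkfb3 as nearest gene. Il2, Irf4, Myc, Prdm1, Cblb and Zeb2 also had 2 each. Both at Il2 were narrower in the EnPGC-1 list, at 369 and 508 bp against 1158 and 565 bp. Ifng, Satb1 and Tox had 1 each, that at Ifng being 319 bp wide against 322 bp.

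No shared distal interval lay at Cd8a, Pdcd1, Il7r, Cd28, Ctla4 or Bcl2. The EnPGC-1 and DMSO lists did hold intervals there, 18 and 4 at Cd8a, 18 and 4 at Pdcd1, 8 and 0 at Il7r, 13 and 3 at Cd28, 10 and 1 at Ctla4, and 28 and 7 at Bcl2. At Cd8a and Pdcd1 all 4 shared intervals lay within 5 kb of a gene end, so the rule leaves them out. At Il7r, Cd28 and Ctla4 no interval of any position was shared. Most of the 29 loci thus lay below the 1.58 per 100 kb of chromosomes 1 to 19. Besides Bcl11b, Runx3 and Runx1, those above it were Tcf7 at 5.07, Batf at 2.7, Bach2 at 2.56 and Id2 at 2.47. Tbx21 at 2.3, Lef1 at 2.23 and Eomes at 1.92 were also above it. The other loci ran from 0 to the 1.55 of Ets1.

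**Figure D5:**
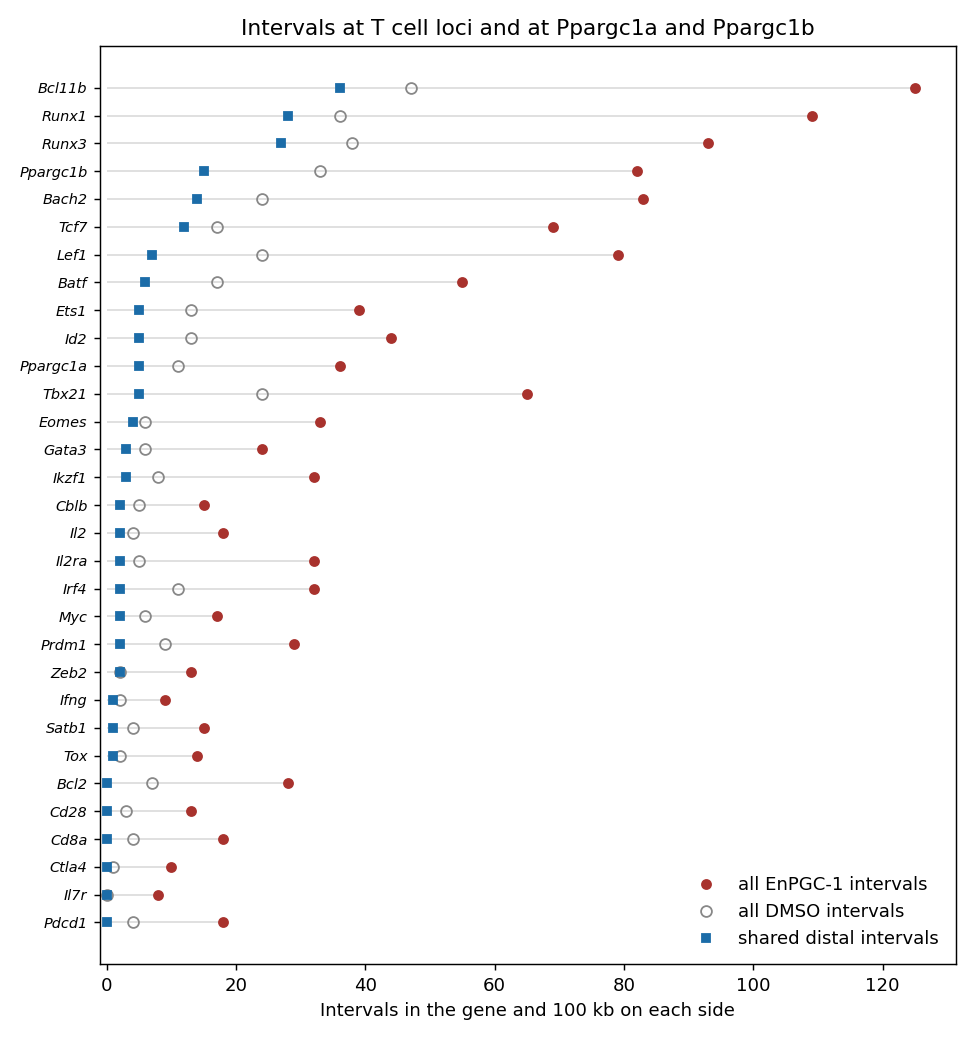
Number of intervals (horizontal axis) in each gene and 100 kb on either side, for 29 T cell genes and for Ppargc1a and Ppargc1b, in order of shared distal intervals (blue squares), with all EnPGC-1 intervals (red points) and all DMSO intervals (open circles). Bcl11b, Runx1 and Runx3 lead with 36, 28 and 27, and 6 loci have 0.

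The genes of the PGC-1 coactivators differed. Ppargc1b had 15 shared distal intervals among 82 EnPGC-1 and 33 DMSO intervals, which is 4.85 per 100 kb, and 9 of the 15 lay within the gene. Of the 15, 13 were wider in the EnPGC-1 list, the widest being 1896 bp within the gene, against 820 bp, and the next 1664 bp within the neighbour Pde6a, against 689 bp. Ppargc1a had 5 among 36 and 11, or 0.58 per 100 kb in a region of 862 kb, 3 of them within the gene. Their widths were 496, 424, 353, 697 and 455 bp, against 623, 305, 548, 378 and 541 bp in the DMSO list, so that 2 of 5 were wider in the EnPGC-1 list. Ppargc1b was thus above the 1.58 per 100 kb of chromosomes 1 to 19 and Ppargc1a below it. The same held for all intervals. Ppargc1b had 26.5 EnPGC-1 and 10.7 DMSO intervals per 100 kb and Ppargc1a 4.18 and 1.28. Chromosomes 1 to 19 had 10.1 and 3.25. Within its 662 kb Ppargc1a held 0.45 shared distal intervals per 100 kb. Genes of 500 kb or more held 0.77 when pooled, with a median gene at 0.37, so Ppargc1a lay between these values. Ppargc1b held 8.23 within its 109 kb, beside 3.03 in genes of 100 to under 200 kb.

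Gene lists were read by whether a gene had a shared distal interval inside it or, for intervals outside genes, was the nearest gene. Of all 20661 protein-coding genes 44.6% had one. Of the T cell identity and receptor signalling genes, 23 of 30 had one, led by Bcl11b with 43, Runx1 with 33 and Runx3 with 24. The kinase gene Fyn held 10 and Cd247, the zeta chain of the receptor, held 7, while Cd3d, Cd3e, Cd3g, Cd8a, Cd8b1, Cd28 and Zap70 had 0. These 7 genes are 5.28 to 27 kb long, and the median length on the list was 47.7 kb, against 17.5 kb for all genes. Of T cell activation genes 20 of 28 had one, with 40 at Nfatc2, 30 at Irf8 and 16 at Nfatc1. Of CD8 memory and naive genes 12 of 16 had one, with 17 at Foxp1, 14 at Bach2 and 12 at Foxo1. CD8 effector genes were nearer to the background, with 12 of 23, led by Id2 with 13; Gzma, Gzmb, Tnf, Ccl3, Ccl4 and Ccl5 had 0. The effector list has a median gene length of 9.34 kb, and short genes cannot hold such an interval inside. Together, 65 of the 95 genes on these 4 lists had one, which is 68.4% (58.1 to 77.6), beside 44.6% of all genes. With intervals of 500 bp or more in both lists it was 43.2%, beside 24.2% of all genes, and with scores of at least each list's median 47.4% beside 28.2%. Gene length was not matched in these shares. Of the exhaustion and inhibitory receptor genes 9 of 16 had one, led by Tox2 with 21 and Vsir with 11, and of the 29 T cell loci above 22.

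Of the PGC-1 network 19 of 30 genes had a shared distal interval. Rxra, the shared partner of nuclear receptors, had 36, with 25 of them in its 86.9 kb, where 62.5% of distal EnPGC-1 intervals were shared. Esrrb had 21, Ppara, the receptor that drives fat burning, 16, Ppard 11 and Ppargc1b 9. Tfam, the packaging factor of mitochondrial DNA, had 1, and Esrra, Sirt1, Sirt3, Gabpa, Tfb1m, Tfb2m and Polrmt had 0. Fatty acid oxidation genes stood at the background, with 13 of 29. Cpt1a, which admits fatty acids into mitochondria, had 11, and no other gene of that list more than 3. Of mitochondrial dynamics and quality control genes 12 of 23 had one, with 11 at Opa1 and 10 at Tomm20.

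Lists of other cell types were not empty. Of B cell genes 8 of 14 had a shared distal interval, with 29 at Pax5, the B lineage factor. Of myeloid genes 7 of 16 had one, with 25 at Cebpb and 22 at Csf3r, and of CD4, Treg and NK genes 6 of 12. Neuronal genes reached 16 of 22 with a median length of 293 kb, Rbfox3 alone having 78, and muscle genes 9 of 19 and liver genes 7 of 19. Among genes of 25 kb or more, where 58.1% of all genes held one inside, the counts were 16 of 21 for T cell identity, 10 of 13 for activation, 5 of 7 for memory and naive, 3 of 4 for effector and 5 of 11 for exhaustion and inhibitory receptor genes. They were 12 of 21 in the PGC-1 network, 7 of 17 for fatty acid oxidation and 2 of 6 for mitochondrial dynamics and quality control. In the lists of other cell types they were 4 of 7 for B cell, 2 of 4 for myeloid, 2 of 3 for CD4, Treg and NK, 11 of 17 for neuronal, 4 of 5 for muscle and 1 of 4 for liver genes. Markers of the labelled cell type and of others were also read. An interval of any kind lay within 5 kb of an end of 12 of 12 CD8 T cell markers after EnPGC-1 treatment. After DMSO it was 9 of 12. For B cell markers it was 5 and 4 of 6, for myeloid markers 6 and 4 of 6, and for CD4, Treg and NK markers 3 and 3 of 4. Ms4a1 had none in the DMSO list, whereas Cd79a, Pax5, Csf1r and Lyz2 had one in both. On chromosomes 1 to 19, 62822 EnPGC-1 intervals lay within 5 kb of a gene end. The share of all protein-coding genes with one was not counted, so the marker counts cannot decide the cell type. Whether other cells took part in the shared distal intervals was not tested.

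A start window like those printed above lay under 890 shared distal intervals, 2.29% of them, against 1.22% of the unpartnered distal ones. The 2 sets differ in median width, at 651 bp and 449 bp. Shared distal intervals with a window had a median width of 958.5 bp, against 645 bp without. The part of width in the 2 shares was not tested. Of 10596 windows more than 5 kb from protein-coding gene ends, 1023 were overlapped, or 9.65%. For starts of protein-coding genes it was 341 of 2013, and for those of long noncoding RNAs 682 of 8582, or 16.9% and 7.95%. Windows of a gene with several starts can overlap each other. Windows under shared distal intervals had a median GC content of 55.3%, against 52.7% under unpartnered EnPGC-1 intervals and 45.7% under none, and a median of 7, 6 and 3 CpG dinucleotides in that order. Outside protein-coding genes, 20.2% of shared distal intervals lay in a long noncoding RNA gene, led by 2610035D17Rik with 25, and 75.3% in no annotated gene at all.

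Short sequence motifs were counted in the start windows on both strands; none of the 7 holds another. Under shared distal intervals, TGANTCA (AP-1) was found in 69 of 1023 windows, 6.74%, against 10.2% of the 1994 windows under unpartnered EnPGC-1 intervals, 9.98% of all distal windows and 7.84% of all 31396 windows. For TGTGGTT (RUNX) the shares in that order were 6.55%, 5.32%, 6.62% and 5.32%, and for CCGGAAG (ETS) 4.99%, 5.42%, 3.13% and 9.004%. For GGAAAA (NFAT) they were 20.04%, 22.5%, 25.6% and 23.3%. For TTCAAAG (TCF/LEF) they were 3.52%, 4.41%, 6.13% and 5.09%, and for AAGGTCA (ERR) 4.69%, 6.12%, 5.99% and 4.69%. For AGGGGGC, part of the CTCF motif, they were 11.24%, 8.88%, 5.88% and 10.7%. These shares are descriptions with no test, the sets of all windows hold the windows under shared distal intervals, and the ETS share was no higher under shared than under unpartnered intervals. GC content also differed between these sets, and its part was not tested. Of the windows printed, that of Prdm1 holds the AP-1 letters and those of Nr4a1 and Nfatc2 the CTCF letters, while those of Runx1 and Lck hold none of the 7.

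The highest scores fell at a few places, several of them in a single gene. In all, 63 shared distal intervals had a score of 20 or more, and 78.8% of all distal EnPGC-1 intervals with such a score were shared (68.2 to 87.1). Of the 10 with the highest scores inside genes, 7 lay in Sfi1 on chromosome 11, a gene for a centrin-binding protein. The first, of 2929 bp, had a score of 255.9 and met DMSO intervals of 3111 bp. The others were one each in Zc3h7a and Atp8b5 and one where Cmss1 and Filip1l overlap, with widths of 346, 995 and 337 bp against 327, 835 and 329 bp. Outside genes the highest, with a score of 540.7, lay on chromosome 17 over Rn18s-rs5, a pseudogene of 18S ribosomal RNA, at 3528 bp against 2654 bp. Its neighbour of 1917 bp, against 1843 bp, lay over the same pseudogene and the long noncoding RNA AY036118. Next to these stood intervals of 370 bp near Ly6c2 and 427 bp near Pex2, against 321 and 410 bp. An interval of 1038 bp over the pseudogene Pisd-ps2, with Scaf8 as nearest protein-coding gene, met 979 bp. The rest of these 10 lay near Scaf8, Samd9l, Cyp2c29, Gm2244 and Nmnat3, at 442 to 827 bp. Over the 20 intervals the EnPGC-1 width was 0.94 to 2.24 times the DMSO width. A pseudogene lay under 17.5% of the shared distal intervals scoring 20 or more and under 2.09% of the others, and the part of repeated sequence in these scores was not tested. Sfi1, ribosomal RNA copies and Pisd-ps2 lie in regions known to gather reads in many sequencing assays, and no list of such regions was used here, so these scores are given as descriptions and not as strength of acetylation.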

How the data were processed

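H3K27ac ChIP, IgG ChIP and input DNA of stimulated CD8+ T cells were sequenced, and groups follow the treatment and antibody of each label. The submitters' processing notes name, on build mm10, MACS2 2.2.2.20160309 and Bowtie 1.1.2, besides ChIPseeker 11.16.1, Picard 0.118 and Trimmomatic 0.38. Parameters, the control and any pooling of samples were not given in the sources used here, so depth, enrichment or control may set the number and width of intervals. The deposited lists, 1 per treatment and without a header, hold chromosome, start, end, name and a score. This deposited score was taken for a −log10 q-value, because its minimum is 1.31 and −log10 of 0.05 is 1.30, and it was used to rank within a list only. The 329623 EnPGC-1 and 84538 DMSO entries were combined into 253423 and 81522 distinct intervals, each with the highest score of its summits. Sequencing depth is unknown here, and 0 columns of per-sample values were left unused.

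Genes came from a RefSeq table (GRCm38.p6, the coordinates of mm10) that gives neither strand nor exons, so exons and introns were not told apart. Distances run to either outer end of a gene. The members, gene lists and alternatives were chosen with earlier results of these data known. The rule for named genes took the 10 highest-scoring intervals inside and 10 outside genes, the 10 genes with most intervals, the 10 groups with most bases, up to 3 genes of each list, 5 extremes of width difference in each direction, and every T cell locus. A list's further genes are named to account for its members. A few genes that this rule or the marker lists take are not reported here. No genome was at hand, so the planned motif counts at interval centres were replaced by counts in RefSeq start windows. Where several DMSO intervals met 1 EnPGC-1 interval, their widths were summed. The calculations, in Python 3.11.15 with pandas 2.3.3, numpy 2.4.6, scipy 1.17.1 and matplotlib 3.10.9, were tested on simulated data, where 0 of 3600 intervals differed from a direct count. Coordinates are printed 1-based.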

Additional observations from a re-analysis of the deposited data

Results flagged for a closer look

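Chromosome X, which lies outside the chromosomes 1 to 19 described above, held 816 intervals that met the same conditions of overlap and distance, which is 17.4% of its 4689 distal EnPGC-1 intervals.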

How the results depend on the processing

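No paired analysis was possible because the deposited lists hold no values per sample, and leaving out a replicate could not be run for the same reason. Each of 12 alternatives was applied to the 11 values it could touch, which gave 122 values, of which 48 moved by less than counting error (counts by less than 1.5 times) and 74 moved by more. In the main account the values were 38919 intervals, 59.3% inside genes, 21.1% of distal EnPGC-1 intervals shared (23.7% inside, 18.2% outside), a median width of 651 bp, a median width ratio of 1.33, 72.6% wider in the EnPGC-1 list, 5954 genes with an interval inside, 20390 groups, and 68.4% of T cell list genes. In each of the 11 alternatives that changed the intervals, the share was higher inside than outside genes, over 50% of intervals lay inside genes, and over 50% were wider in the EnPGC-1 list. When each list was limited to scores of at least its median, the values were 14166, 60.3%, 15.3% (17.3% inside, 13.0% outside), 790 bp, 1.44, 77.5%, 3670 genes, 10265 groups and 47.4%. With equal numbers of highest-scoring intervals they were 15038, 61.8%, 25.9% (29.4% inside, 21.8% outside), 901 bp, 1.64, 83.0%, 3779 genes, 10503 groups and 51.6%. With intervals of 500 bp or more in both lists they were 12610, 64.8%, 14.5% (16.4% inside, 11.99% outside), 949 bp, 1.2998, 74.2%, 3266 genes, 8456 groups and 43.2%. Asking for an overlap of at least 50% of the EnPGC-1 interval gave 23248, 55.6%, 12.6% (13.3% inside, 11.9% outside), 511 bp, 1.11 and 61.7% wider, and 50% of both intervals gave 21204, 54.8%, 11.5% (11.9% inside, 11.0% outside), 528 bp, 1.15, 67.6% wider and 56.8% of T cell list genes. A limit of 2500 bp moved the share inside genes to 61.2%, the shared share to 21.5% (24.3% inside), the width to 662 bp and the ratio to 1.34, and a limit of 10 kb moved them to 56.4%, 20.5% (22.9% inside), 637 bp and 1.32. Distance from the ends of genes of every biotype gave 64.0%, 20.8% (23.4% inside, 17.4% outside), 641 bp, 1.32 and 56.8% of T cell list genes. Beside these T cell list shares, all protein-coding genes stood at 44.6% in the main account, 28.2% with median scores and 28.8% with equal numbers. Their share was 24.2% with intervals of 500 bp or more, 36.7% with 50% of both intervals and 39.7% with the ends of every biotype. Merging intervals within 1000 bp gave 55.2%, 23.2% (26.3% inside, 20.2% outside), 1022 bp, 1.75 and 79.5% wider. Joining within 5000 bp gave 26605 groups, a count within 1.5 times. Leaving out chromosome 8, or EnPGC-1 scores of 20 or more, both chosen after seeing the data, gave 36345 and 38856 intervals, and no value moved. Stricter sets have fewer intervals by construction; other causes were not tested. Depth is unknown, and the number of intervals depends on it.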
